A study of Arabidopsis thaliana with 10 samples.

Results

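The genes described here lie on chromosome 3 of Arabidopsis thaliana on both sides of FLU (AT3G14110), the gene that is mutated in every flu line of the study. They are the probe sets assigned to a single locus from AT3G11560 to AT3G19999 whose signal reached the 40th percentile of the array on at least 2 of the 10 arrays, without AT3G11630 and AT3G13450. This left 308 probe sets of 306 loci, out of 14435 that passed the same filter and 22746 on the array when its 64 control probe sets are left out. In the interval, 157 further probe sets stayed below the filter, and 1 was left out by name. FLU and EX2 themselves were not analysed here.

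RNA abundance was measured on 10 ATH1 arrays, short-oligonucleotide microarrays on which a set of probes reads each gene, with rosette leaves of 5 genotypes and 2 biological replicates each. The flu line carried the flu1-1 allele, which was found in the accession Landsberg erecta and brought into Columbia by 5 backcrosses. The ex1/flu line was made by crossing this flu line with the EX1 (At4g33630) T-DNA insertion SALK 002088, and the ex2/flu line with the EX2 (At1g27510) insertion SALK 012127. The ex1/ex2/flu line was picked by PCR from the F2 of a cross between ex1/flu and ex2/flu, and wild type was Columbia. All 5 genotypes grew in continuous light to the start of bolting, spent 8 h in the dark and then 30 min in light, and each sample pooled 5 plants.

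FLU is a plastid protein that holds back the synthesis of protochlorophyllide, a precursor of chlorophyll, in the dark. In flu mutants the pigment builds up in the dark and gives off singlet oxygen in the plastids when light returns, and the nuclear response to it depends on the plastid proteins EXECUTER1 and EXECUTER2. A mutation that is moved into another accession by backcrossing carries a stretch of the donor chromosome with it, and this stretch shrinks only where a crossover falls close to the selected gene. Landsberg erecta and Columbia differ in the level of many transcripts and in the sequence of many genes. The probes of an ATH1 array follow the Columbia sequence, so a base difference under a probe can lower its signal at an equal amount of RNA. Every flu line here descends from the same backcrossed line, so an effect of the FLU mutation cannot be told apart from one of Landsberg erecta sequence next to it, nor RNA abundance from a sequence difference under the probes.

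The 10 arrays had been scaled by the authors to a common level, with array medians between 158 and 171 signal units, and replicate arrays correlated at 0.973 to 0.985 across probe sets. The 40th percentile, called the filter level below, lay between 85.5 and 92.6. The EX1 probe set read 248 and 236 in ex1/flu and read 185 and 225 in ex1/ex2/flu, against 772 and 771 in flu, 631 and 561 in ex2/flu, and 606 and 772 in wild type, so it was low in the lines labelled as EX1 mutants. Of the marker lists, 2 of 14 leaf genes had a probe set assigned to them alone in the gene table used. Both were bright on every array: RCA read 15260 to 21041 and LHCB4.2 read 6848 to 17011. The root list had 1 of 8 such genes, EXPA7, which stayed below the filter level on all 10 arrays at 9.47 to 39.1. The flower list had 0 of 8, so a part of flower tissue in the differences was not tested. The other listed genes may be read by probe sets that the gene table does not list. In pooled leaves, fewer cells of a type and less RNA per cell cannot be told apart.

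Along the interval, 32 of the 308 probe sets differed between the mean of the 4 flu lines and wild type, 25 lower and 7 higher in the flu lines. These calls come from limma, fitted to all 10 arrays, at an adjusted p under 0.05 (Benjamini-Hochberg, over all 14435 probe sets). The share called was 10.4% in the interval, against 3.92% of all probe sets tested. The difference lay on the lower side: 8.12% were called lower, against 1.69% of all probe sets, whereas 2.27% were called higher, against 2.23%. On chromosomes 1, 2, 4 and 5, 182 of 6134 probe sets (2.97%) were called, 0.962% lower and 2.01% higher. Most genes of the interval differed little, since 261 of the 308 lay within 0.5 of wild type on the log2 scale, and the median difference was -0.069, against -0.021 over all probe sets. The median size of a called difference was 0.87 on the log2 scale, and by the fitted values 7 genes were called at least 2-fold lower and 1 at least 2-fold higher, among them AT3G18870 and NRPB9A, whose bounds given below are smaller. The count rested on having both wild-type arrays. Without the first wild-type array 10 of the members were called (3.25%, against 1.71% of all tested), and without the second 12 (3.90%, against 1.87%). Of the 32 genes, 22 lost the call without the first wild-type array and 20 without the second. The 10 genes called under every alternative in which they were tested were AT3G14220, NAI2, AT3G16200, UGT88A1, AT3G16990, AT3G18860, AT3G19030, AT3G19515, AT3G19520 and bHLH121.

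The filter bears on the counts as well. Of the 308 probe sets, 269 reached the filter level on all 10 arrays, and 24 of these were called (8.92%), against 3.83% of the 12403 probe sets that did so over the whole array. Another 5 (AT3G18870, AT3G18310, NAI2, AT3G19515 and AT3G16750) reached it on the wild-type arrays only, so they could only be lower in the flu lines. Without them, 29 of 303 were called (9.57%), against 3.88% of all 14414 probe sets left by the same restriction. A further 11 probe sets lay below the level on both wild-type arrays and passed through flu-line arrays. This favours higher values in the flu lines but did not fix the direction, since AT3G11580, which was among them, differed by -0.29 ± 0.35. AT3G16175 and NRPB9A, both called higher, were among them as well. Of the 269 members over the level on all 10 arrays, 5 were called higher (1.86%, against 2.14% of all such probe sets). Called lower were 19 of the 269 (7.06%, against 1.69%). At the edge of the filter, the 9 members that reached the level on exactly 2 arrays had a median log2 signal of 5.98, and the 8 probe sets of the interval that reached it on 1 array had 5.97.

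**Figure D1:**
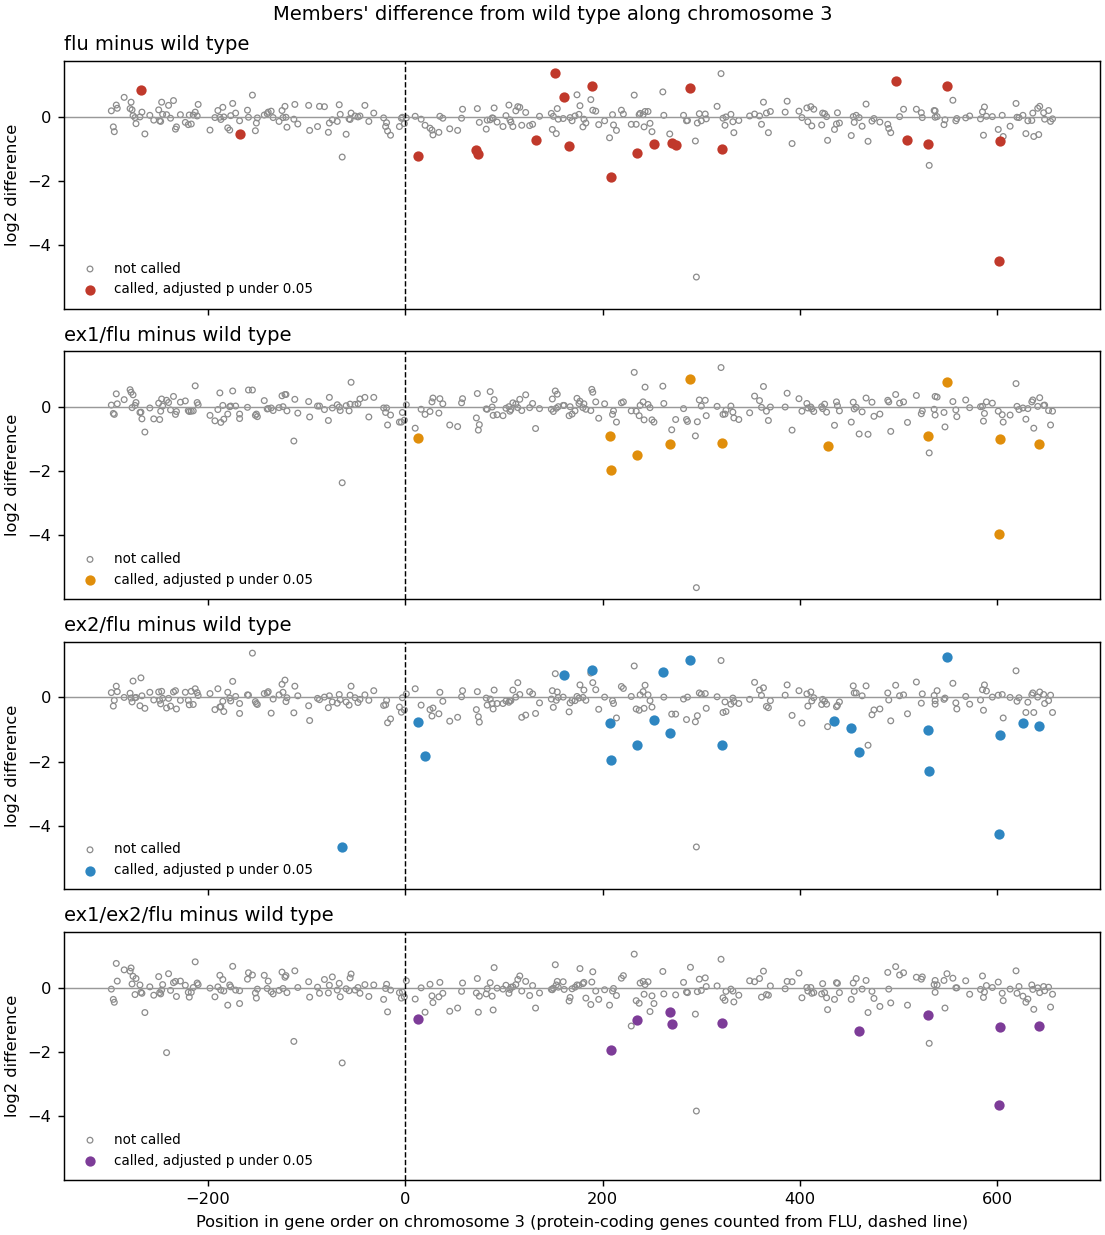
Log2 difference from wild type of each probe set of the interval (y axis) against its position in gene order, counted in protein-coding genes from FLU (x axis), from top to bottom for flu, for ex1/flu, for ex2/flu and for ex1/ex2/flu. Filled points passed limma's adjusted p of 0.05 in that line, and nearly all of them lie to the right of FLU, most below 0.

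The 2 sides of FLU held different shares of calls, which were not tested against each other. Before FLU, on the side of lower locus numbers, 3 of 103 probe sets were called (2.91%), all lower. After FLU, 29 of 205 were called (14.1%), 22 of them lower (10.7%) and 7 higher (3.41%). By segments of 1000 locus numbers, the calls numbered 1 of 18 in AT3G11, 1 of 40 in AT3G12, 1 of 41 in AT3G13 and 2 of 31 in AT3G14. They were most frequent in AT3G16, where 10 of 35 were called (28.6%), 6 lower and 4 higher. AT3G15 had 6 of 45 (13.3%), AT3G17 had 1 of 30 (3.33%), AT3G18 had 5 of 31 (16.1%) and AT3G19 had 5 of 37 (13.5%). The share of calls did not change smoothly along the chromosome. The widest gap between called genes that follow each other was 107 genes, from AT3G16990 to AT3G17950, and not all genes in it are among the members.

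Shares near the background returned beyond the interval on the far side. In AT3G20000 to AT3G24999, 4 of 133 probe sets were called (3.01%), and from AT3G20000 to the end of the chromosome 32 of 895 (3.58%). On the other side, before AT3G11560, 20 of 379 were called (5.28%). The segments next to the interval there were higher than that, with 3 of 18 called (16.7%) in the part of AT3G11 before the interval and 4 of 29 (13.8%) in AT3G10. Segments of this size hold few probe sets, and no test was made between them.

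**Figure D2:**
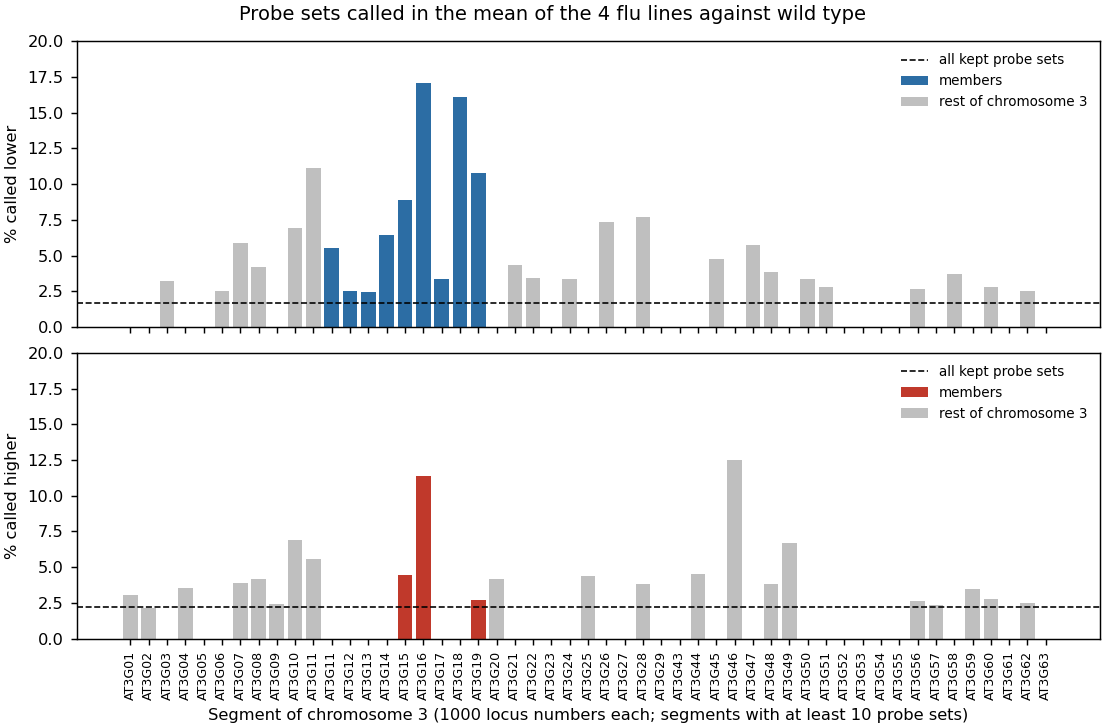
Percentage of probe sets called lower (top) and higher (bottom) in the mean of the 4 flu lines than in wild type, by segment of 1000 locus numbers along chromosome 3; coloured bars are the interval around FLU, grey bars the rest of the chromosome, and the dashed line is the share over all probe sets tested. The tallest bar for lower calls is AT3G16 (17.1%), and only AT3G15, AT3G16 and AT3G19 hold higher calls within the interval.

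A count without a model was made as well. On 43 of the 308 probe sets (14%) all 8 arrays of flu lines lay below both wild-type arrays, against 5.78% of all probe sets tested. After FLU these were 35 of 205 (17.1%), and before FLU 8 of 103 (7.77%). All 8 arrays lay above both wild-type arrays on 15 probe sets (4.87%), against 3.87% of all. Of the 43 below, 24 were also called by limma, and of the 32 called, 29 had arrays that did not overlap between the flu lines and wild type.

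Each flu line was also compared with wild type on its own. These comparisons share the 2 wild-type arrays, so a high or low wild-type value enters all 4 of them, and their values are given side by side. In flu, 16 probe sets were called lower (5.19%, against 1.02% of all tested) and 7 higher (2.27%, against 2.83%). In ex1/flu, 11 were lower (3.57%, against 0.859%) and 2 higher (0.649%, against 0.720%). In ex2/flu, 18 were lower (5.84%, against 2.02%) and 5 higher (1.62%, against 2.75%). In ex1/ex2/flu, 11 were lower (3.57%, against 0.859%) and 0 higher, against 0.388%. In each line the lower calls exceeded the share of all probe sets tested and the higher calls did not. That background also holds probe sets without an assigned locus, which the members do not.

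After FLU the lower calls numbered 15 for flu, 11 for ex1/flu, 17 for ex2/flu and 11 for ex1/ex2/flu, whereas before FLU they numbered 1, 0, 1 and 0 in the same lines. These counts also moved with single arrays. Called in either direction were 23 probe sets for flu (7.47%, against 3.84% of all tested) and 13 for ex1/flu (4.22%, against 1.58%). For ex2/flu there were 23 (7.47%, against 4.77%) and for ex1/ex2/flu 11 (3.57%, against 1.25%). With either wild-type array left out, each of these counts was smaller. The share called for flu was then near the share of all probe sets tested, while in the other lines it stayed above that share. The flu count was also smaller without either flu array, and the ex1/ex2/flu count without the second array of that line.

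The genes nearest FLU showed no called difference. AT3G14100, the protein-coding gene just before FLU, read 2357 and 2332 in flu, 2294 and 1823 in ex1/flu, 2201 and 1958 in ex2/flu, and 2226 and 2268 in ex1/ex2/flu, against 2555 and 2909 in wild type. All 8 arrays of flu lines lay below wild type, but the difference of -0.33 ± 0.12 log2 units (SE, n = 2 per genotype) missed limma's threshold at an adjusted p of 0.174. LSM1B (AT3G14080), a subunit of the complex that promotes decapping in mRNA decay, differed by -0.09 ± 0.15, and AT3G14075 by -0.33 ± 0.15. On the other side AT3G14120 differed by 0.09 ± 0.16 and AT3G14200 by -0.18 ± 0.23. AT3G13610, 64 genes before FLU, and AT3G14220, 13 genes after it, were the nearest called genes on the 2 sides. The 21 probe sets measured between them were thus uncalled by this choice, and only 2 of the 21 lie after FLU.

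AT3G14220 was thus the called gene closest to FLU. Its signal was 734 and 769 in flu, 891 and 884 in ex1/flu, 1099 and 973 in ex2/flu, and 869 and 930 in ex1/ex2/flu, against 1835 and 1678 in wild type. The 8 arrays of flu lines did not overlap with wild type, and replicates lay close together. The mean difference was -0.98 ± 0.12 log2 units (SE, n = 2 per genotype, limma adjusted p 7.02e-05), with -1.22 for flu, -0.98 for ex1/flu, -0.76 for ex2/flu and -0.96 for ex1/ex2/flu. Like most loci described below, it has no symbol in the tables used here and is named by its locus only.

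The largest called difference was that of AT3G19515, 602 genes after FLU. It read 42.3 and 28.0 in flu, 53.9 and 44.5 in ex1/flu, 48.3 and 33.3 in ex2/flu, and 61.4 and 62.6 in ex1/ex2/flu, against 813 and 730 in wild type. Every array of a flu line was below the filter level, and both wild-type arrays were far above it. Where a genotype stayed below that level on both arrays its signal gives only a bound, taken here as the other genotype's mean log2 signal minus the mean log2 of the level. AT3G19515 was at least 8.65-fold lower in the flu lines (limma adjusted p 9.42e-08, fitted log2 difference -4.09 ± 0.26, n = 2 per genotype). The bound was at least 3.12 log2 units for flu, 3.11 for ex1/flu, 3.13 for ex2/flu and 3.08 for ex1/ex2/flu. This probe set passed the filter through wild type alone.

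Its neighbour AT3G19520, the next protein-coding gene, was lower as well but stayed measurable. It read 543 and 447 in flu, 429 and 414 in ex1/flu, 427 and 331 in ex2/flu, and 366 and 353 in ex1/ex2/flu, against 846 and 838 in wild type. The groups did not overlap, and the difference was -1.04 ± 0.14 log2 units (limma, n = 2 per genotype, adjusted p 0.000184). By line it was -0.77 for flu, -1.0 for ex1/flu, -1.16 for ex2/flu and -1.23 for ex1/ex2/flu.

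NAI2 (AT3G15950) encodes a protein needed to form ER bodies, compartments of the endoplasmic reticulum that store beta-glucosidases used in defence. It read 66.2 and 60.3 in flu, 64.9 and 56.0 in ex1/flu, 69.3 and 52.3 in ex2/flu, and 70.4 and 52.6 in ex1/ex2/flu, against 199 and 274 in wild type. All flu-line arrays lay below the filter level and within a narrow range. NAI2 was at least 2.62-fold lower in the flu lines (limma adjusted p 0.000221, fitted -1.93 ± 0.26 log2 units, n = 2 per genotype), and it too passed the filter through wild type alone. The adjacent gene AT3G15940 was lower too, at -0.73 ± 0.15 (adjusted p 0.0102).

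UGT88A1 (AT3G16520), a UDP-glucosyltransferase, an enzyme type that attaches glucose to small molecules, was one of the brighter genes. It read 1905 and 1646 in flu, 1223 and 1110 in ex1/flu, 1300 and 1111 in ex2/flu, and 1591 and 1503 in ex1/ex2/flu, against 2691 and 2466 in wild type. All flu lines were below wild type, with flu the closest to it. The mean difference was -0.88 ± 0.12 log2 units (limma, n = 2 per genotype, adjusted p 0.00023). By line it was -0.54 for flu (adjusted p 0.0585), -1.15 for ex1/flu, -1.10 for ex2/flu and -0.74 for ex1/ex2/flu, and the test of differences among the 4 lines gave an adjusted p of 0.0618. AT3G16530, 2 genes further on, read 2859 and 3627 in flu, 3260 and 3719 in ex1/flu, 4196 and 3756 in ex2/flu, and 3117 and 2203 in ex1/ex2/flu, against 6444 and 5035 in wild type, a difference of -0.79 ± 0.14 (adjusted p 0.00334).

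bHLH121 (AT3G19860), a transcription factor that starts the iron-deficiency response, was the called gene furthest from FLU, 642 genes after it. Its signal was 459 and 454 in flu, 290 and 320 in ex1/flu, 314 and 410 in ex2/flu, and 338 and 257 in ex1/ex2/flu, against 661 and 681 in wild type. No flu-line array reached wild type. The mean difference was -0.95 ± 0.15 log2 units (limma, n = 2 per genotype, adjusted p 0.000886). The line differences were -0.56 for flu (adjusted p 0.132), -1.14 for ex1/flu, -0.90 for ex2/flu and -1.19 for ex1/ex2/flu, and the test among the 4 lines gave an adjusted p of 0.182.

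AT3G16200 and AT3G18860 were lower by around 2-fold. AT3G16200 read 181 and 154 in flu, 141 and 119 in ex1/flu, 157 and 109 in ex2/flu, and 203 and 166 in ex1/ex2/flu, against 358 and 375 in wild type, and fell by 1.28 ± 0.18 on the log2 scale (limma adjusted p 0.000321). AT3G18860 read 510 and 501 in flu, 532 and 456 in ex1/flu, 440 and 456 in ex2/flu, and 598 and 436 in ex1/ex2/flu, against 932 and 892 in wild type, and fell by 0.90 ± 0.14 (adjusted p 0.000846). Both were separate from wild type on every array. The difference was -0.89 ± 0.22 for AT3G17950 (adjusted p 0.0329) and -0.81 ± 0.21 for AT3G14760 (adjusted p 0.0395), both lower in the flu lines and with arrays near the filter level. The AT3G17950 call held in 10 of 17 alternative analyses and the AT3G14760 call in 8 of 17.

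**Figure D3:**
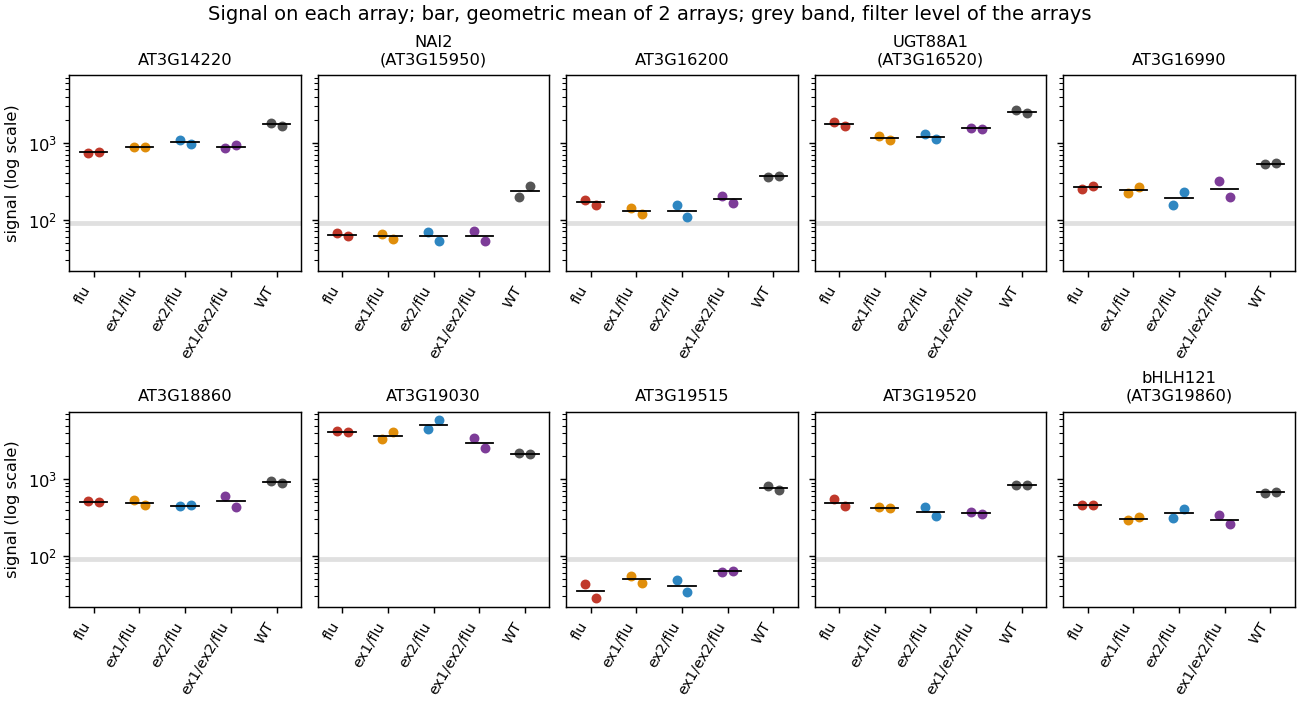
Signal on each array (points, log scale) and geometric mean of the 2 arrays (bars) in the flu, ex1/flu, ex2/flu, ex1/ex2/flu and wild-type samples, for the 10 genes called in the mean of the 4 flu lines against wild type under every alternative analysis in which they were tested; the grey band is the filter level. The flu lines lie below wild type in 9 genes and above it in AT3G19030, and AT3G19515 and NAI2 lie below the band in every flu line.

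Of the 7 genes higher in the flu lines, AT3G19030 was the brightest but for AT3G15450. It read 4214 and 4141 in flu, 3318 and 4071 in ex1/flu, 4550 and 5832 in ex2/flu, and 3426 and 2511 in ex1/ex2/flu, against 2211 and 2101 in wild type. All flu-line arrays were above wild type, ex2/flu the furthest and ex1/ex2/flu the nearest. The mean difference was 0.86 ± 0.13 log2 units (limma, n = 2 per genotype, adjusted p 0.000951), with 0.95 for flu, 0.77 for ex1/flu, 1.26 for ex2/flu and 0.44 for ex1/ex2/flu (adjusted p 0.316 in this last line). AT3G16700 read 315 and 275 in flu, 282 and 299 in ex1/flu, 297 and 436 in ex2/flu, and 254 and 244 in ex1/ex2/flu, against 163 and 157 in wild type. It was higher by 0.89 ± 0.16 (adjusted p 0.00276) with no overlap between the groups.

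AT3G15450 read 12730 and 11576 in flu, 4593 and 9605 in ex1/flu, 6613 and 9360 in ex2/flu, and 9363 and 6353 in ex1/ex2/flu, against 4747 and 4643 in wild type. One ex1/flu array lay below wild type, and the replicates of the 3 EXECUTER lines differed widely. Its mean difference was 0.83 ± 0.21 log2 units (limma, n = 2 per genotype, adjusted p 0.0322), and that of flu alone 1.37 (adjusted p 0.0058). AT3G15770 was higher by 0.64 ± 0.16 (adjusted p 0.0335), with 1 array of ex1/ex2/flu (376) below the wild-type arrays (444 and 414). The AT3G15450 call in the mean of the flu lines held in 10 of 17 alternative analyses and that of AT3G15770 in 11 of 17. AT3G16175 lay just below the filter level in wild type (85.3 and 86.4) and at 123 to 232 in the flu lines, at least 0.59 log2 units higher for flu, 1.01 for ex1/flu, 0.90 for ex2/flu and 0.98 for ex1/ex2/flu (adjusted p of the mean 0.0203). It passed the filter through flu-line arrays only, which favours a higher value in the flu lines.

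JAL33 (AT3G16450), a jacalin-related lectin, read 276 and 360 in flu, 245 and 342 in ex1/flu, 325 and 314 in ex2/flu, and 252 and 275 in ex1/ex2/flu, against 158 and 217 in wild type. The groups did not overlap, and its log2 signal was higher by 0.68 ± 0.17 (n = 2 per genotype, limma's adjusted p 0.0354). This call held in 10 of 17 alternative analyses, with differences of 0.45 to 0.91. JAL34 (AT3G16460), the related lectin gene next to it, differed by -0.01 ± 0.16, and its arrays overlapped. NRPB9A (AT3G16980), a subunit of RNA polymerase II, was dim, at 63.6 to 121 in the flu lines and 52.7 and 29.5 in wild type. Wild type was below the filter level on both arrays, so the fitted difference of 1.15 ± 0.31 (adjusted p 0.0498) is no size. The bound was at least 0.14 log2 units higher for flu and 0.03 for ex1/flu, and the signals of ex2/flu and ex1/ex2/flu gave none above 0. The call was lost in 11 of 16 alternative analyses.

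Among called neighbours that lie next to each other in gene order, 4 pairs were found. AT3G15940 and NAI2 were both lower, AT3G18860 and AT3G18870 were both lower, and AT3G19515 and AT3G19520 were both lower. NRPB9A and AT3G16990 went opposite ways. AT3G16990 read 250 and 278 in flu, 225 and 270 in ex1/flu, 157 and 232 in ex2/flu, and 317 and 195 in ex1/ex2/flu, against 527 and 540 in wild type, and fell by 1.18 ± 0.19 log2 units (limma, n = 2 per genotype, adjusted p 0.00117). In the RefSeq annotation of TAIR10.1 the loci NRPB9A and AT3G16990 overlap, as do AT3G18860 and AT3G18870, and which bases the probes of these genes cover was not examined. AT3G18870 was below the filter level on every flu-line array (19.1 to 49.0, against 103 and 131 in wild type), at least 1.3-fold lower (adjusted p 0.019). Like NAI2 and AT3G19515, it passed the filter through wild type alone and so could only be lower, which holds for 1 gene of each of the 3 pairs that were lower together.

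**Figure D4:**
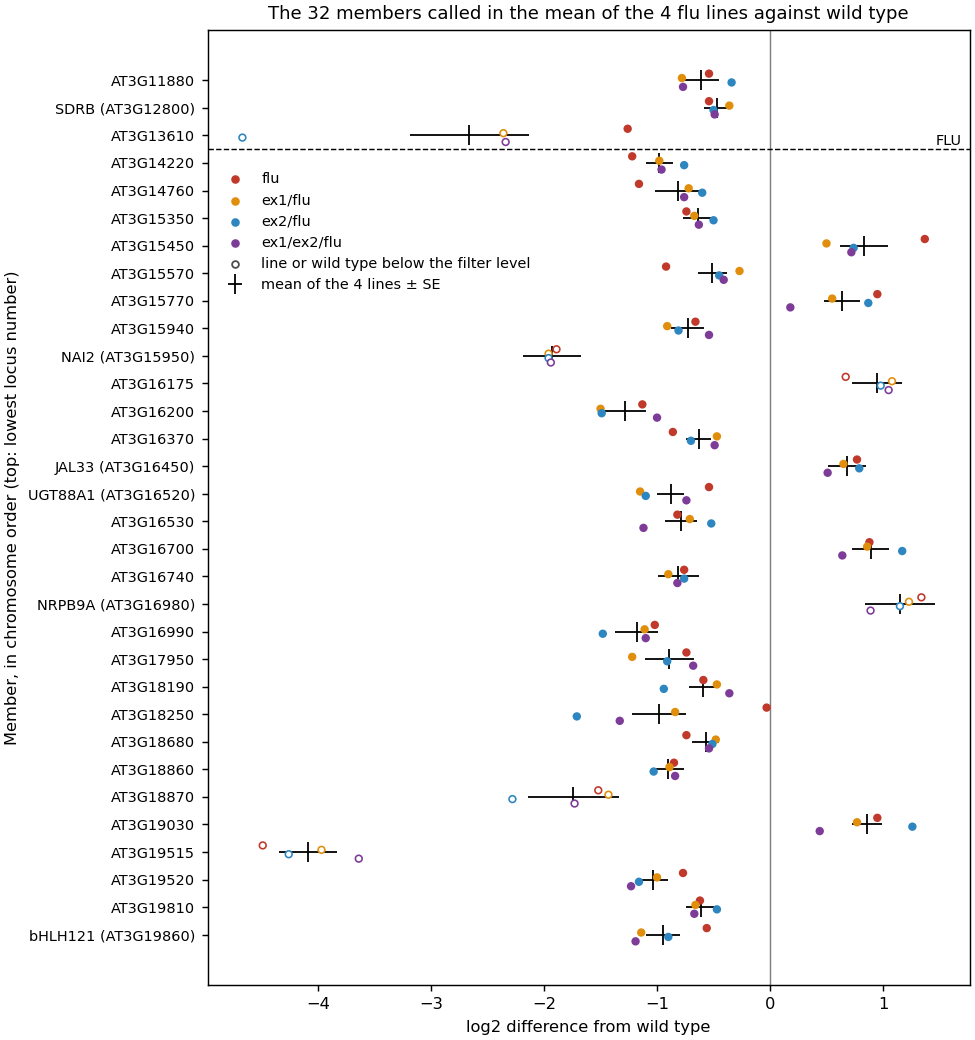
Log2 difference from wild type of the 32 called probe sets in chromosome order (y axis) in each of the 4 flu lines (coloured points) with the mean of the 4 lines ± SE (black); open points mark differences in which the line or wild type lay below the filter level on both arrays, where the plotted value is the fitted one. The fitted means of the 4 lines lie on 1 side of 0 in each gene, 25 on the lower and 7 on the higher side. Arrays of a flu line nevertheless overlap with wild type in AT3G15450, AT3G15770 and AT3G18250, where flu lies close to 0 in AT3G18250. The dashed line marks the place of FLU.

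The 3 genes called before FLU were SDRB, AT3G11880 and AT3G13610. SDRB (AT3G12800), a peroxisomal short-chain dehydrogenase, was read by a pair of probe sets that differ. One differed by -0.47 ± 0.11 log2 units (limma, n = 2 per genotype, adjusted p 0.0253) and the other differed by -0.16 ± 0.13 (adjusted p 0.668). AT3G11880 fell by 0.61 ± 0.16 (adjusted p 0.04), at 246 to 427 in the flu lines and 503 and 455 in wild type. Its call held in 9 of 17 alternative analyses. AT3G13610 is F6'H1, the enzyme that makes the precursor of the coumarin scopoletin. It read 96.5 and 66.6 in flu, 37.0 and 37.8 in ex1/flu, 17.2 and 3.29 in ex2/flu, and 56.0 and 25.5 in ex1/ex2/flu, against 185 and 198 in wild type. All flu-line arrays were below wild type, and 7 of the 8 were below the filter level, where readings have no order. The mean difference was -2.66 ± 0.53 (adjusted p 0.00838), and the signal was below the filter level on both arrays of 3 lines, with bounds of at least 1.10 log2 units lower for ex1/flu, 1.12 for ex2/flu and 1.07 for ex1/ex2/flu.

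Whether the flu lines differ among themselves was asked with an F test over the 4 lines, which does not use the wild-type mean. It called 7 of the 308 probe sets (2.27%), against 3.71% of all probe sets tested. Of the 32 genes called against wild type, 29 were not called by it, which does not show that the lines were alike in these genes. The 7 were PUB24, AT3G15760, AT3G15530, AT3G18250, AT3G13610, DRT100 and AT3G19030, and 3 of them, AT3G13610, AT3G18250 and AT3G19030, are among the 32. Against flu, 1 probe set was called in ex1/flu (0.325%, against 1.36% of all), 2 in ex2/flu (0.649%, against 1.04%), while ex1/ex2/flu had 5 (1.62%, against 3.0%). In each case the share in the interval was below that of all probe sets. For the F test this also held with any 1 array left out. With 1 array left out, the F test called between 2 (without the first flu array) and 13 (without the second ex1/flu array), 4 without either wild-type array, and 4 without the second array of flu, of ex2/flu or of ex1/ex2/flu. PUB24 and AT3G15760 kept their F-test call without any 1 array, at adjusted p of up to 0.0174 and 0.0336. The other genes lost it without at least 1, with adjusted p of up to 0.0642 for AT3G15530, 0.182 for DRT100, 0.196 for AT3G13610, 0.209 for AT3G18250 and 0.293 for AT3G19030. Against flu, counts became 0 without the second flu array in ex1/flu, 0 without the first in ex2/flu, and 0 without the second ex1/ex2/flu array in that line.

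PUB24 (AT3G11840), a U-box ubiquitin ligase that dampens immune signalling, read 747 and 926 in flu, 438 and 395 in ex1/flu, 787 and 648 in ex2/flu, and 437 and 410 in ex1/ex2/flu, against 465 and 468 in wild type. Flu and ex2/flu were high, and the lines with the EX1 insertion lay slightly below wild type. PUB24 fell by 1.0 ± 0.17 log2 units in ex1/flu against flu (limma adjusted p 0.0054, n = 2 per genotype) and in ex1/ex2/flu against flu by 0.97 ± 0.17 (adjusted p 0.00379). Without the second flu array these adjusted p were 0.121 and 0.078. In flu against wild type PUB24 was higher by 0.83 ± 0.17 (adjusted p 0.00889).

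AT3G15530 and AT3G15760 had flu and ex2/flu above the other lines as well. AT3G15530 read 1364 and 1268 in flu, 971 and 819 in ex1/flu, 1521 and 1277 in ex2/flu, and 821 and 835 in ex1/ex2/flu, against 813 and 907 in wild type. In ex1/ex2/flu against flu it fell by 0.67 ± 0.16 log2 units (limma adjusted p 0.0298, n = 2 per genotype). AT3G15760 read 406 and 504 in flu, 231 and 364 in ex1/flu, 548 and 512 in ex2/flu, and 201 and 237 in ex1/ex2/flu, against 328 and 300 in wild type. It fell by 1.05 ± 0.21 in ex1/ex2/flu against flu (adjusted p 0.0104), with both arrays of ex1/ex2/flu also below wild type. Of the 4 arrays compared, leaving out any 1 ended the AT3G15530 call and leaving out any of 3 the AT3G15760 call, with limma adjusted p of up to 0.263 for AT3G15530 (without the second ex1/ex2/flu array) and 0.139 for AT3G15760 (without the second flu array).

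AT3G18250 showed another order. It read 545 and 340 in flu, 191 and 318 in ex1/flu, 95.2 and 189 in ex2/flu, and 174 and 175 in ex1/ex2/flu, against 468 and 414 in wild type. Flu overlapped with wild type, and the EXECUTER lines lay below both. The difference from flu was -1.68 ± 0.31 log2 units in ex2/flu (limma adjusted p 0.0206, n = 2 per genotype) and -1.3 ± 0.31 in ex1/ex2/flu (adjusted p 0.0299). The difference of AT3G13610 between ex2/flu and flu was -3.42 ± 0.68 (adjusted p 0.0282), where ex2/flu was below the filter level, so this size is a fitted value and no bound, and its F-test call rests on readings below that level in 3 of the 4 lines. AT3G14740 read 140 and 131 in flu, 249 and 196 in ex1/flu, 253 and 182 in ex2/flu, and 269 and 232 in ex1/ex2/flu, against 266 and 292 in wild type. In flu it fell by 1.05 ± 0.21 relative to wild type (adjusted p 0.00852), and it was higher in ex1/ex2/flu than in flu by 0.89 ± 0.21 (adjusted p 0.0309). With 1 flu array left out, the adjusted p against flu was up to 0.279 for AT3G18250 in ex2/flu, 0.32 for AT3G18250 in ex1/ex2/flu, 0.328 for AT3G13610 and 0.182 for AT3G14740. DRT100 (AT3G12610), a leucine-rich repeat protein named from a screen for tolerance of DNA damage, was highest in ex1/flu (3822 and 2645) and ex1/ex2/flu (3103 and 3024), with flu at 2287 and 2316, ex2/flu at 2129 and 1703 and wild type at 2270 and 2410.

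**Figure D5:**
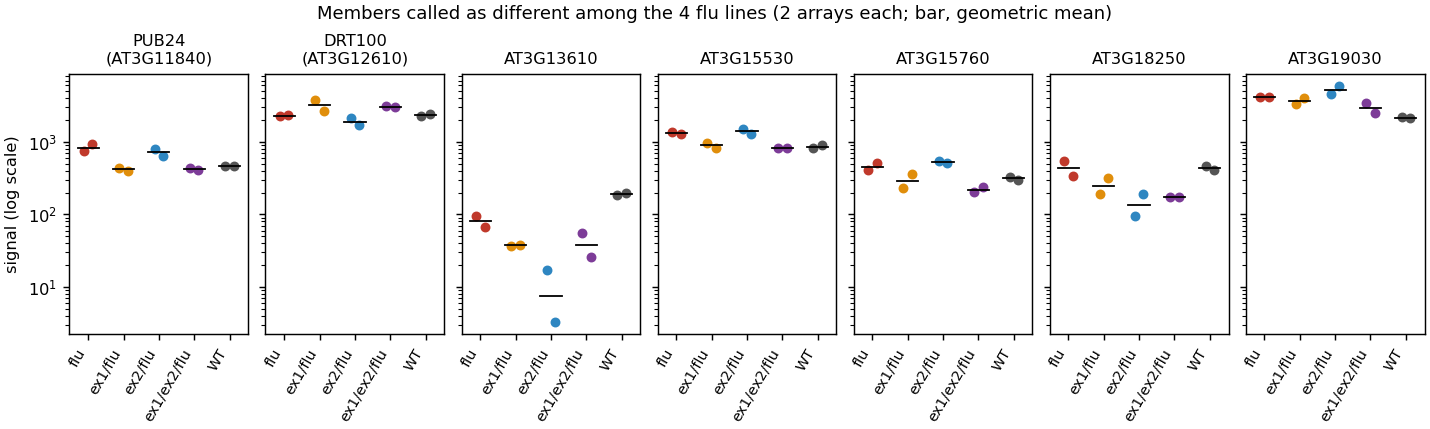
Signal on each array (points, log scale) and geometric mean of the 2 arrays (bars) in the flu, ex1/flu, ex2/flu, ex1/ex2/flu and wild-type samples, for the 7 genes called as different among the 4 flu lines. In PUB24, AT3G15530 and AT3G15760 flu and ex2/flu lie above ex1/flu and ex1/ex2/flu, and in AT3G13610 every flu line lies below wild type.

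In single lines, 2 more genes met the naming rule. AT3G18560 was higher in flu (351 and 346, against 152 and 171 in wild type) by 1.11 ± 0.27 log2 units (limma adjusted p 0.0331, n = 2 per genotype). AT3G14280 was below the filter level in ex2/flu (36.6 and 22.8, against 76.2 and 140 in wild type), at least 0.23 log2 units lower (adjusted p 0.0149). Without the first wild-type array the adjusted p of AT3G18560 was 0.239, and without the second that of AT3G14280 was 0.209.

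Few loci of known pathways were among the members. Of the 14 loci listed for the chloroplast and photosynthesis, 3 were members and 0 called. Cpn60beta2 (AT3G13470), a plastid chaperonin subunit, differed by -0.35 ± 0.15 log2 units, PIFI (AT3G15840), a factor of chlororespiration, by -0.33 ± 0.15, and HEME1 (AT3G14930), a uroporphyrinogen decarboxylase of tetrapyrrole synthesis, by 0.34 ± 0.13. Of 11 loci listed for glucosinolate metabolism and its lectins, 3 were members: JAL33 and JAL34, given above, and BCAT4 (AT3G19710), an aminotransferase of methionine chain elongation. BCAT4 was lower on all 8 arrays of flu lines, at 2176 to 2876 against 3165 and 3546 in wild type, but the difference of -0.46 ± 0.12 missed the threshold (limma adjusted p 0.055). Of 13 loci listed for stress and hormone responses, 0 were members. Listed loci that are no members may be read by probe sets that the gene table does not list, so their absence is no result.

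The remaining called genes were chosen for mention after their values were seen. AT3G16370 read 5445 to 8712 in the flu lines and 11191 and 10808 in wild type, and fell by 0.63 ± 0.11 log2 units (limma adjusted p 0.00172, n = 2 per genotype). The difference was -0.81 ± 0.18 for AT3G16740, -0.64 ± 0.13 for AT3G15350, -0.61 ± 0.13 for AT3G19810, -0.59 ± 0.13 for AT3G18190, -0.57 ± 0.12 for AT3G18680 and -0.51 ± 0.13 for AT3G15570. On each of these the 8 arrays of flu lines lay below both of wild type. The AT3G15570 call held in 7 of 17 alternative analyses. AT3G16750, which passed the filter through wild type alone, read 1.54 to 19.7 in the flu lines, all below the filter level, and 166 and 123 in wild type. Its bound was at least 1.60-fold lower, and it was not called (adjusted p 0.144). AT3G18310, the fifth such gene, was not called either (adjusted p 0.162).

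The small number of arrays limits the precision. With 2 arrays a side, the smallest two-sided p of an exact permutation test is 0.333. The labels give 2 biological replicates of pooled plants, so p-values measure the spread between these samples.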

How the data were processed

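Total RNA was labelled with biotin and hybridised to 10 arrays. The authors deposited 1 signal per probe set, a linear intensity made with GCOS 1.2 and MAS5, per the submitters' processing notes. The mean between the 2nd and 98th percentile lay between 499.796 and 499.816 on every array. Neither the target of this scaling nor how background was treated is given in the sources used here, and there were no detection calls. The 64 control probe sets were left out. Signals were log2-transformed and fitted with limma 3.58.1 in R 4.3.3 (lmFit, contrasts.fit, eBayes with an intensity trend), with 1 mean per genotype over all 10 arrays, 5 residual and 10.0 prior degrees of freedom. Errors are limma's moderated standard errors. The code was tested on simulated data. Python 3.11.15 with matplotlib 3.10.9 drew the figures.

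Probe sets were named through the array's given gene table (13513 with 1 gene, 503 with several, 8730 unlisted). Of those kept, 7786 matched a locus in RefSeq's TAIR10.1 table, which was used for names and gene order only, because no build is named for the files. All 308 members were measured in gene order but for 2 without a place, over 955 protein-coding genes.

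The members, gene lists and comparisons were chosen with earlier results of these data known. Named were, among called genes, up to 12 lowest and 12 highest in the mean of the flu lines, up to 5 and 5 with separated arrays in each line against wild type, up to 10 in the F test, up to 5 and 5 in each line against flu, the 3 members nearest FLU on each side, and the listed members. Of genes outside this rule, SDRB, AT3G11880, AT3G15940, AT3G16530, AT3G16750, AT3G18310, AT3G16370, AT3G16740, AT3G15350, AT3G19810, AT3G18190, AT3G18680 and AT3G15570 were named after their values were seen. Alternatives covered normalization, filter, offset, spread model, arrays in the fit, blocks for replicate number and for spike-in level, and leaving out each array.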

Additional observations from a re-analysis of the deposited data

How the results depend on the processing

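No direction of a named call was reversed: of 491 values recomputed under other settings 429 kept their call and 62 lost it, and of 660 with 1 array left out 502 kept it and 158 lost it. The 32 members called in the mean of the flu lines against wild type were 22 to 35 under the other settings. Without filter, members called against wild type in ex1/flu were 8 in place of 13. For ex1/ex2/flu against wild type (11), there were 6 without the intensity trend and 20 from the arrays compared alone, and for ex2/flu against wild type (23) there were 36 with a block for spike-in level. The F test (7) gave 3 without filter, 2 when the trend was dropped and 4 from the arrays of the flu lines alone. Against flu, ex1/flu (1) had 3 with the spike-in block, ex2/flu (2) had 0 without filter, 1 with the stricter filter, 0 without the trend and 4 with the spike-in block, and ex1/ex2/flu (5) had 3 without filter, 2 when the trend was dropped and 8 from the arrays compared alone. The cause of these changes was not tested.

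With 1 array left out, the members called ranged from 10 (without wild-type replicate 1) to 39 for the mean of the flu lines, from 6 to 29 for flu, from 4 to 15 for ex1/flu, from 14 to 33 for ex2/flu and from 3 to 15 for ex1/ex2/flu, each against wild type. The lowest counts came without a wild-type array or, for ex1/ex2/flu, without its replicate 2. For the F test they ranged from 2 to 13, and against flu from 0 to 5 for ex1/flu, 0 to 3 for ex2/flu and 0 to 9 for ex1/ex2/flu. The correlation of deviations between samples of the same replicate number was 0.431 for ex1/flu with ex2/flu. For every other pair of genotypes it lay between -0.086 and 0.088, so the numbers did not pair the samples throughout. What the arrays of ex1/flu and ex2/flu shared was not tested. With a replicate block 31 members were called in the mean of the flu lines, 25 for flu, 14 for ex1/flu, 24 for ex2/flu and 11 for ex1/ex2/flu against wild type, and 7 by the F test. Against flu it gave 2 for ex1/flu, 2 for ex2/flu and 7 for ex1/ex2/flu. The replicate block moved only the count of ex1/flu against flu by over 1.5 times. The spike-in control probe sets split the arrays into 2 levels, and all 32 genes kept their direction within both. For 29 of the 32 no flu-line array overlapped with wild type, so their direction had to hold and this is no separate check. Dim probe sets give bounds only, since the table has no detection calls.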
